A study of Gallus gallus with 23 samples.

Results

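The comparison set 6 chickens given corticosterone (CS) directly against 6 chickens given triiodothyronine (T3), and used 12 of the 23 liver arrays of the study. Its members were taken by their labels: every replicate of the group that received corticosterone without T3, and every replicate of the group that received T3 without corticosterone. The birds were Ross x Cobb broiler cockerels that carried an osmotic pump under the skin from 29 days of age, and liver was taken after 6 days of treatment. The pump of the CS group delivered 600 micrograms of corticosterone per kg per day and that of the T3 group 192 micrograms of T3 per kg per day. Vehicle control (VC, 6 arrays, no hormone in the pump) and the group given both hormones at the same doses (CS+T3, 5 arrays) served as reference points. Their arrays also entered the estimate of the spread used by the test. No removal of the thyroid or adrenal glands is described. Birds were housed 3 to a pen in 2 rooms, and the labels do not give the pen or room of an array.

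Corticosterone is the main glucocorticoid of birds and acts through nuclear receptors that bind DNA in hormone-responsive genes. T3 is the active form of thyroid hormone and acts through thyroid hormone receptors, which are nuclear receptors as well. The liver is the main site of fatty acid synthesis in the chicken and the source of most plasma proteins, and both hormones are known to act on lipid, carbohydrate and protein metabolism there. The title of the study names the resulting phenotypes as lean and fat, and the direct comparison asks how the livers of birds on one hormone differ from those of birds on the other.

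On each array the liver RNA of a replicate, in one dye, met a reference pool made from 6 control birds, in the other dye, so each value is a log ratio to that pool. The base of the logarithm was taken to be 2, which the range of the values allows but the labels do not state. Which channel is the numerator is not given in the sources used here. Signs are therefore those of the deposited values, and "higher in CS" means a higher deposited ratio in CS than in T3. If the pool were the numerator, every direction below would turn round, while the sizes, the tests and the grouping of genes on either side would stay as they are.

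Arrays held 8925 to 13721 deposited values for 19200 spots. On CS replicate 3 and on T3 replicates 1 and 3 the values sat against the wrong spots, by 13 spots on CS replicate 3, by 14 on T3 replicate 3, and by lags that grew along the array from block 29 on in T3 replicate 1. These arrays, and 3 of the other groups, were realigned before testing. Not all values could be kept: 6348 of 10919 were used on CS replicate 3, 6436 of 8925 on T3 replicate 1 and 7284 of 11788 on T3 replicate 3. T3 replicate 1 was the least certain: its correlation with the other arrays was 0.145 over the first 29 blocks, which stayed in place, and 0.364 over the longest part that was moved and kept. In all, 9244 features were tested, of which 4834 were named genes and 4410 were spots without a gene name. Precision is limited by having 6 arrays a group, with a median residual standard deviation of 0.221 (log2). Replicate 5 of CS and replicate 5 of T3 each lay nearer to the mean of the other group than to that of their own, so both birds stood apart from their labels, and whether these had been exchanged was not tested. Every difference below includes both birds under their labels, and without them 1424 features passed in place of 702. Both were singled out on this same difference, so a rise follows from the choice. No scan date, slide or batch is given, so batches could not be examined.

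The livers of the CS and T3 birds differed in many genes, and the differences were larger on the side where the ratio was lower in CS. With limma's moderated test and a Benjamini-Hochberg adjusted p under 0.05, 702 features passed, which is 7.59% of those tested. The ratio was higher in CS for 231 of them (2.5%) and lower in CS for 471 (5.1%). Among named genes 363 passed (7.51%), 119 higher (2.46%) and 244 lower (5.05%). The median difference of the features that passed was 0.49 on the higher side and -0.73 on the lower side, and a difference of at least 1 was reached by 14 features on the higher side and 132 on the lower side. The median difference over all features was 0.05, and 58.5% of all features were above 0. Between-array scaling changed the split: 35 higher and 250 lower passed after the arrays were centred and scaled to equal spread, and 57 higher and 166 lower after quantile normalization. Of the called named genes 128 had several spots tested, and in 21 of these the spots lay on both sides of 0.

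Of 2332 features with a value on all 12 arrays, the values of the groups did not overlap in 16 with the ratio higher in CS (0.686%) and 42 with the ratio lower in CS (1.8%). No such share was computed for features with missing values, and several genes named below lack values. Set against vehicle in the same fit, 384 features (4.15%) passed for CS and 0 (0.0%) for T3, although 436 features had an unadjusted p under 0.05 for T3, against 1812 for CS, and no adjusted p for T3 was below 0.962. The 3 contrasts share arrays, so their values are given side by side only. For the 244 named genes lower in CS than in T3, the median of CS minus VC was -0.47 and that of T3 minus VC 0.15. The difference of CS from VC was the larger of the pair in 211 of them. For the 119 genes higher in CS the medians were 0.33 and -0.15, and the difference of CS from VC was the larger in 96. Both sets of genes were chosen by CS minus T3, so medians on opposite sides of 0 follow in part from the choice. How often the difference of CS from VC was the larger over all features was not computed, so these counts have no background share.

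To show where each bird lay, its values were projected on the difference between the groups computed without that bird, with 0 at the T3 mean and 1 at the CS mean. CS birds lay between 0.42 and 1.15 (median 0.88) and T3 birds between -0.02 and 0.57 (median 0.16). Because each bird was left out of its own mean, the birds of a group need not average 0 or 1. Replicate 5 of CS, at 0.42, and replicate 5 of T3, at 0.57, each lay farthest of its group towards the other, and the T3 bird was closer to the CS mean than the CS bird was. On an axis that still included these 2 birds, the other CS birds started at 0.77 and the other T3 birds ended at 0.30. The 2 birds were singled out on this same axis, so a gap between the others follows from the choice. VC birds lay between 0.14 and 0.34 and CS+T3 birds between 0.08 and 0.35. All of them were on the T3 side of the midpoint and within the range of the T3 birds. With the values as deposited, CS replicate 3 fell from 0.92 to 0.25 and T3 replicate 3 rose from -0.01 to 0.35.

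**Figure D1:**
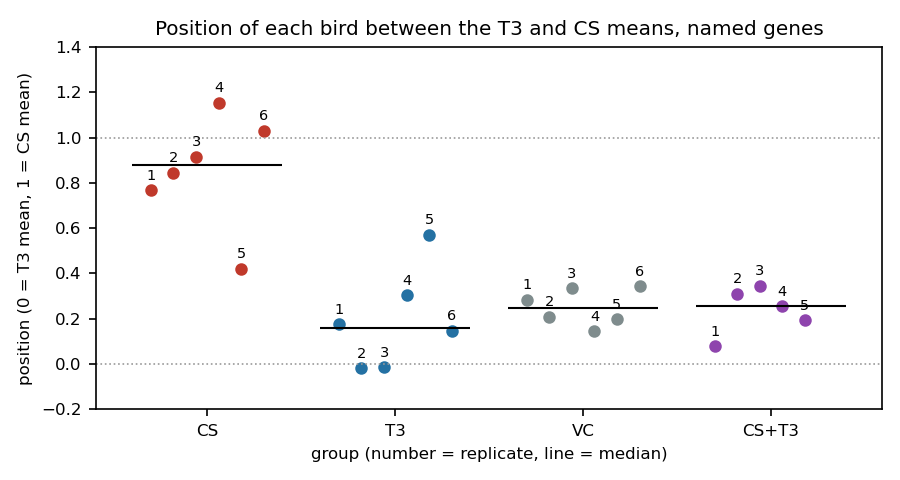
Position of each array between the T3 group mean (0) and the CS group mean (1), by projection of its named genes on the group difference. Means were computed without the array shown, so the birds of a group need not average 0 or 1 (medians 0.16 for T3 and 0.88 for CS). Genes with larger differences weigh more. Points are birds, numbers are replicates and lines are group medians. CS birds span 0.42 to 1.15 and T3 birds -0.02 to 0.57, with replicate 5 of each group lying between the others, and VC and CS+T3 birds lie between 0.08 and 0.35.

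Many genes for proteins that the liver secretes into plasma had lower ratios in CS, and their lists had the 4 lowest medians of the 28. Of 45 measured members of 4 lists (coagulation, protease inhibitors, carriers and complement), 24 had a lower ratio in CS, 1 a higher ratio and 20 did not pass. The share called was 55.6%, beside 7.59% of all features. The median difference was -0.61, beside 0.05 over all features. The count of 25 became 16 when the 3 misplaced arrays were left out, 13 with no array realigned, 14 after scaling and 7 after quantile normalization. It became 30 without replicate 5 of both groups. Over all features the count of 702 became 325, 233, 285, 223 and 1424 in the same settings, in that order. Hepatocyte markers overlap with these lists: of 13 measured, 5 were lower in CS and 1 higher (46.2% called). All those called encode secreted proteins (FGA, FGB, F2, TTR and APOB lower, FGG higher). Markers that did not pass included ALB (-0.57), APOA1 (-0.17) and CEBPA (0.005). HNF4A and PCK1 did not pass in any setting. The mean ratio of the 11 hepatocyte markers with a value on at least 10 of the 12 arrays was -0.89 to -0.32 over CS birds and -0.39 to 0.20 over T3 birds. In bulk liver RNA, fewer cells of a type and less RNA per cell cannot be told apart.

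Among the carriers, 6 of 10 measured members were lower in CS and none was higher (60.0% called, beside 7.59% of all features). The 4 that did not pass were ALB, albumin (-0.57, adjusted p = 0.305), TF, transferrin, HPX and RBP4. Their differences were below 0 as well, and they did not pass in any setting. ORM1, which encodes the acute-phase protein orosomucoid, had log2 ratios of -3.28, -2.58 and -1.22 (lowest, median and highest of 6 CS birds) and of -1.23, 0.83 and 1.44 in 5 T3 birds with a value. The groups met only at T3 replicate 5, which lay just below the highest CS bird, replicate 3. The difference, CS minus T3, was -2.62 (SE 0.49, adjusted p = 0.00293), a 6.17-fold higher ratio in T3, and the call was lost after quantile normalization (adjusted p = 0.0672). TTR encodes transthyretin, a carrier of thyroid hormone in plasma. Its ratios ran over -1.85, -1.44 and -1.04 in 5 CS birds and -0.43, 0.27 and 0.70 in 6 T3 birds, with no overlap. TTR differed by -1.66 (SE 0.25, adjusted p = 0.0006), and the call was kept in all 26 alternative settings. Its 3 spots all lay below 0 but ranged from -2.67 to -0.54. APOH, apolipoprotein H, which binds phospholipids, gave -2.01, -1.24 and -0.39 in CS and -0.56, -0.02 and 1.00 in T3. The overlap was the highest CS bird, replicate 5, with the lowest T3 bird, also replicate 5. APOH differed by -1.39 (SE 0.25, adjusted p = 0.00172; exact permutation p = 0.00433). GC, the vitamin D-binding protein, differed by -0.95 (SE 0.21), CP, the copper protein ceruloplasmin, by -0.62 (SE 0.18), and FTH1, the heavy chain of the iron store ferritin and mainly an intracellular protein, by -0.48 (SE 0.13).

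Coagulation and fibrinolysis had 8 of 13 measured members lower in CS and 1 higher. The share called was 69.2%, beside 7.59% of all features, and the median difference was -0.77. F2, prothrombin, gave -1.36, -1.12 and -0.65 in CS and -0.59, -0.42 and -0.02 in 5 T3 birds, without overlap, and differed by -0.77 (SE 0.14, adjusted p = 0.00231). For F2, CS minus VC was -1.05 and T3 minus VC -0.28, both below 0. FGA, FGB and FGG encode the alpha, beta and gamma chains of fibrinogen, which assemble into 1 protein, and they did not go together. FGA had -2.20, -1.43 and -0.85 in 5 CS birds and -0.94, -0.04 and 0.42 in T3, and differed by -1.21 (SE 0.26, adjusted p = 0.0068). FGB differed by -1.49 (SE 0.41, adjusted p = 0.0296). FGG had the opposite sign, with 0.28, 0.71 and 0.82 in CS against -0.26, 0.02 and 0.12 in 5 T3 birds, and no overlap. Its difference was 0.64 (SE 0.16, adjusted p = 0.0167), and it rested on 1 spot, as did FGB. The calls of FGB and FGG were lost in 11 and 7 of 26 settings, without a change of sign. VTN, vitronectin (-0.99), PLG, plasminogen (-0.94), SERPIND1, heparin cofactor II (-1.07), F9, coagulation factor IX (-0.82) and CPB2, the fibrinolysis inhibitor TAFI (-0.36), were also lower in CS.

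Of the protease inhibitors, 4 of 10 measured members were lower in CS. A2M, alpha-2-macroglobulin, a broad inhibitor of proteases, gave -1.23, -0.90 and -0.38 in CS and -0.19, 0.12 and 0.41 in T3. The groups did not overlap, and A2M differed by -0.95 (SE 0.13, adjusted p = 0.000272; exact permutation p = 0.00216, the smallest that 6 against 6 birds can give). AHSG, fetuin A, a mineral-binding plasma protein, differed by -1.90 (SE 0.41, adjusted p = 0.00772). Its T3 birds were widely spread, from -0.35 to 2.42, beside -1.50 to -0.33 in 5 CS birds. Against vehicle AHSG did not pass for either hormone, with CS minus VC at -1.06 (adjusted p = 0.158) and T3 minus VC at 0.85. AMBP, the precursor of alpha-1-microglobulin and bikunin, differed by -1.56 (SE 0.28) and ITIH2, a heavy chain of the inter-alpha-trypsin inhibitor that bikunin joins, by -0.76 (SE 0.23).

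Complement had 6 of 12 measured members lower in CS (50.0% called, beside 7.59% of all features), none higher, and no member above 0. C3, the central component of the cascade, gave -1.68, -0.52 and -0.02 in CS and -0.13, 0.68 and 0.97 in T3. The overlap came from T3 replicate 5, whose ratio lay below that of CS replicate 1. C3 differed by -1.24 (SE 0.24, adjusted p = 0.00306; exact permutation p = 0.00433), and it set CS apart from vehicle by -1.31 and T3 by -0.06. C8A, a part of the membrane attack complex (-1.20), CFI, the protease that inactivates C3b (-0.97), C4 (-0.51), C1S (-0.51) and MASP1, a protease of the lectin pathway (-0.35), were lower as well. Of 10 measured genes of apolipoproteins and lipoprotein handling 3 were lower in CS and none was higher (30.0% called). They were APOH, APOB (-1.08, SE 0.18), the structural protein of very low density lipoprotein, and APOA5 (-0.31, SE 0.09), a regulator of triglyceride clearance.

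**Figure D2:**
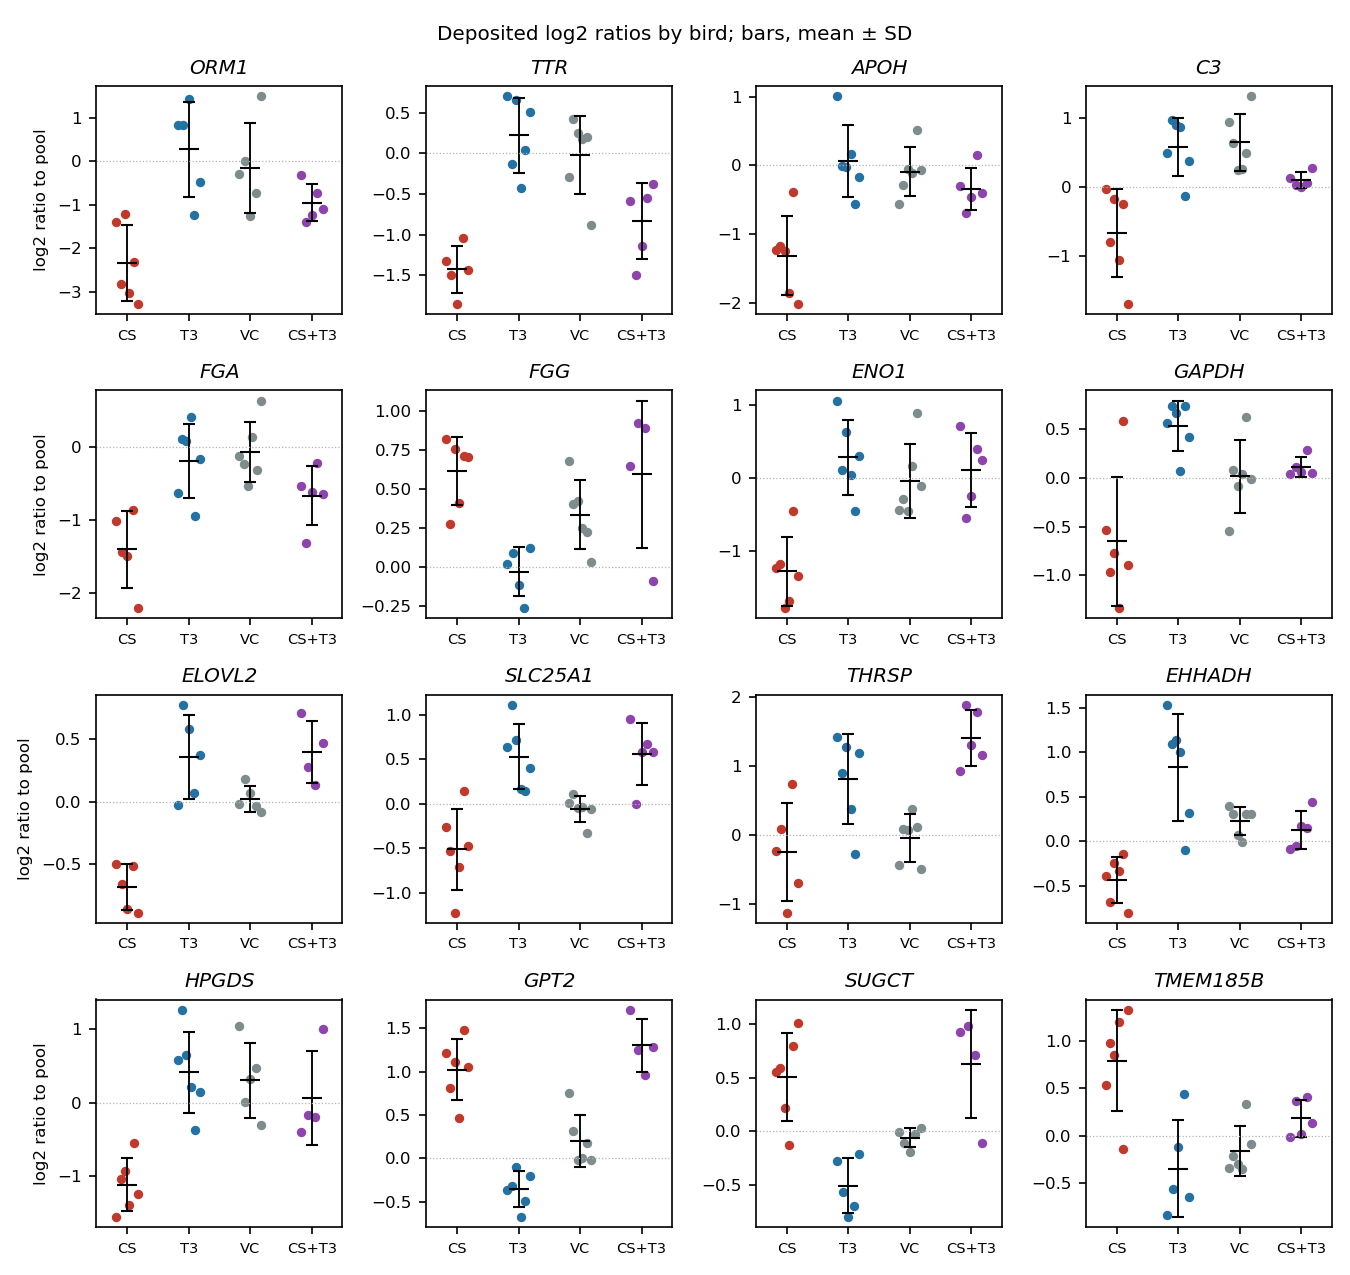
Log2 ratio to the control pool (vertical axes, scales differ between panels) for 16 genes in each bird of the 4 groups; bars are the mean ± SD. For TTR, ENO1, ELOVL2, EHHADH, HPGDS, FGG, GPT2 and SUGCT the CS and T3 birds with a value do not overlap. GPT2 spans 0.46 to 1.48 in CS and -0.68 to -0.09 in T3.

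In fatty acid synthesis the genes lower in CS were a citrate carrier, an elongase, an acyl-CoA synthetase and 2 regulators. Of 19 measured members 5 were lower in CS and none was higher (26.3% called, beside 7.59% of all features), with a list median of -0.06. THRSP encodes Spot 14, a lipogenic nuclear protein known as a thyroid hormone target. Its ratios were -1.12, -0.23 and 0.73 in 5 CS birds and -0.28, 1.05 and 1.42 in 6 T3 birds. The groups overlapped through both replicates 5, the CS bird being the highest of its group and the T3 bird the lowest. THRSP differed by -1.06 (SE 0.30, adjusted p = 0.0357), with T3 minus VC at 0.86 and CS minus VC at -0.20. This call was lost in 15 of 26 settings, with an adjusted p of 0.291 for the values as deposited. Without replicate 5 of both groups the adjusted p was 0.000612. Those birds were singled out for lying between the groups on this same difference, so a lower p follows from the choice. SLC25A1, the mitochondrial citrate carrier that supplies carbon for fatty acid synthesis, gave -1.23, -0.51 and 0.14 in CS and 0.14, 0.52 and 1.11 in T3, and differed by -1.04 (SE 0.19, adjusted p = 0.00197). ELOVL2, an elongase of very long polyunsaturated fatty acids, did not overlap, with -0.88, -0.66 and -0.49 in 5 CS birds and -0.03, 0.38 and 0.77 in 5 T3 birds. CS replicate 5 had no value for this gene. ELOVL2 differed by -1.03 (SE 0.14, adjusted p = 0.000536). ACSL1, which activates fatty acids, differed by -0.89 (SE 0.18) and NR1H3, the sterol-sensing receptor LXR alpha, by -0.41 (SE 0.10). FASN, the synthase that makes palmitate, had a difference of 0.31 (SE 0.32), ACLY, which supplies acetyl-CoA, one of 0.32 (SE 0.14), and ACACA, the carboxylase that makes malonyl-CoA, one of -0.02 (SE 0.15). None of these 3 enzymes passed.

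In the other lists of lipid metabolism the shares called lay on both sides of the 7.59% of all features, at 5.26% for fatty acid oxidation, 8.33% for triglyceride synthesis and 13.3% for cholesterol synthesis. EHHADH, the peroxisomal bifunctional enzyme of fatty acid oxidation, was the single call of 19 measured members of its list. Its ratios were -0.80, -0.36 and -0.14 in CS and -0.10, 1.05 and 1.53 in T3, with CS and T3 birds apart by a narrow margin. EHHADH differed by -1.27 (SE 0.20, adjusted p = 0.00067; exact permutation p = 0.00216), with CS minus VC at -0.66 and T3 minus VC at 0.60. Its 2 spots differed in size, -1.96 and -0.11. Of 12 genes of triglyceride synthesis and lipid droplets only GPD1, which makes glycerol 3-phosphate, was called, with a ratio higher in CS by 0.35 (SE 0.10, adjusted p = 0.0468). The call of GPD1 was lost in 20 of 25 settings. Of 15 genes of cholesterol synthesis ACAT2, acetoacetyl-CoA thiolase, was higher (0.56) and INSIG2, which retains the sterol sensor in the endoplasmic reticulum, was lower (-0.62). None of 7 genes of bile acid synthesis and export passed, a list too short to set this apart from the 7.59% of all features.

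Glycolysis had 4 of 14 measured members lower in CS and none higher (28.6% called, beside 7.59% of all features). ENO1, alpha-enolase, gave -1.79, -1.29 and -0.46 in CS and -0.45, 0.20 and 1.05 in T3, just without overlap. It differed by -1.56 (SE 0.27, adjusted p = 0.00133; exact permutation p = 0.00216). GAPDH, a glycolytic dehydrogenase often taken as a reference gene, gave -1.33, -0.83 and 0.59 in CS and 0.07, 0.61 and 0.74 in T3. A single CS bird, replicate 5, lay among the T3 birds. GAPDH differed by -1.18 (SE 0.22, adjusted p = 0.00256) over 11 spots that all lay below 0, and the call was kept in 26 of 26 settings. GPI, glucose 6-phosphate isomerase, did not overlap and differed by -0.63 (SE 0.12, adjusted p = 0.00231), and LDHB, a lactate dehydrogenase subunit, differed by -1.05 (SE 0.24, adjusted p = 0.0113). LDHB ran from -1.01 to -0.38 in the CS birds with a value and from -0.59 to 1.38 in T3. The overlap came from T3 replicate 5, and T3 replicates 1 and 2 were the highest, at 0.99 and 1.38. For these 4 genes T3 minus VC was 0.32, 0.52, 0.40 and 0.66 and CS minus VC was -1.24, -0.67, -0.23 and -0.39. PGAM1, phosphoglycerate mutase, differed by -1.10 and narrowly missed the threshold (adjusted p = 0.0526).

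Gluconeogenesis and glycogen had 3 of 13 members lower in CS (23.1% called, beside 7.59% of all features). They were FBP1, fructose 1,6-bisphosphatase (-0.68, SE 0.18), PCK2, the mitochondrial form of phosphoenolpyruvate carboxykinase (-0.63, SE 0.13), and PGM1, phosphoglucomutase (-0.38, SE 0.11). None of the 3 passed with the values as deposited. In the tricarboxylic acid cycle list of 16 (12.5% called), ACO1 was lower and PDK3, a kinase that inhibits pyruvate dehydrogenase, higher (0.38). ACO1, the cytosolic aconitase that also acts as an iron regulatory protein, had -1.57 to -0.32 in 5 CS birds and -0.26 to 0.38 in 5 T3 birds. It differed by -1.20 (SE 0.21, adjusted p = 0.00197). Oxidative phosphorylation had 20.0% of 30 genes called. Lower in CS were 5, 4 of them subunits of ATP synthase (ATP5H -0.79, ATP5C1 -0.61, ATP5B -0.58 and ATP5G1 -0.51) and 1 the electron carrier cytochrome c (CYCS, -0.54). COX7C, a subunit of cytochrome oxidase, was higher (0.81). The 2 spots of ATP5B lay at -1.19 and 0.02, and the 3 of ATP5G1 ran from -1.01 to -0.015. ATP5C1 had a value in only 3 T3 birds, while the call of ATP5H was kept in 25 of 26 settings. This list's count of 6 became 2 with no array realigned and 2 when the 3 misplaced arrays were dropped. It was 3 after scaling, 1 after quantile normalization and 5 without replicate 5 of both groups. Over all features the count of 702 became 233, 325, 285, 223 and 1424 in the same settings, in that order.

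The gene with the smallest adjusted p among those named with a ratio higher in CS was GPT2, an aminotransferase that interconverts alanine and pyruvate. Its ratios were 0.46, 1.08 and 1.48 in CS and -0.68, -0.34 and -0.09 in T3. Every CS bird was above 0 and every T3 bird below it. GPT2 differed by 1.38 (SE 0.16, adjusted p = 0.00018; exact permutation p = 0.00216), a 2.6-fold higher ratio in CS. Against vehicle it passed for CS, with CS minus VC at 0.82 (adjusted p = 0.0051), while T3 minus VC was -0.56 and did not pass, and CS+T3 birds had 0.97 to 1.71. The call narrowly failed with the values as deposited (adjusted p = 0.0566), where the difference was 1.00. The other 28 measured genes of amino acid catabolism gave 1 call, FAH, the last enzyme of tyrosine breakdown (-0.86, SE 0.19). That list of 29 had 6.9% called, near the 7.59% of all features. In the list of serine, methionine and cysteine metabolism 12.5% of 16 measured genes were called. SHMT1, serine hydroxymethyltransferase, was higher (0.64) and GSS, glutathione synthetase, lower (-0.34). ATIC, which closes the purine ring, was the single call of 11 purine genes (9.09%), at -1.01 (SE 0.22).

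**Figure D3:**
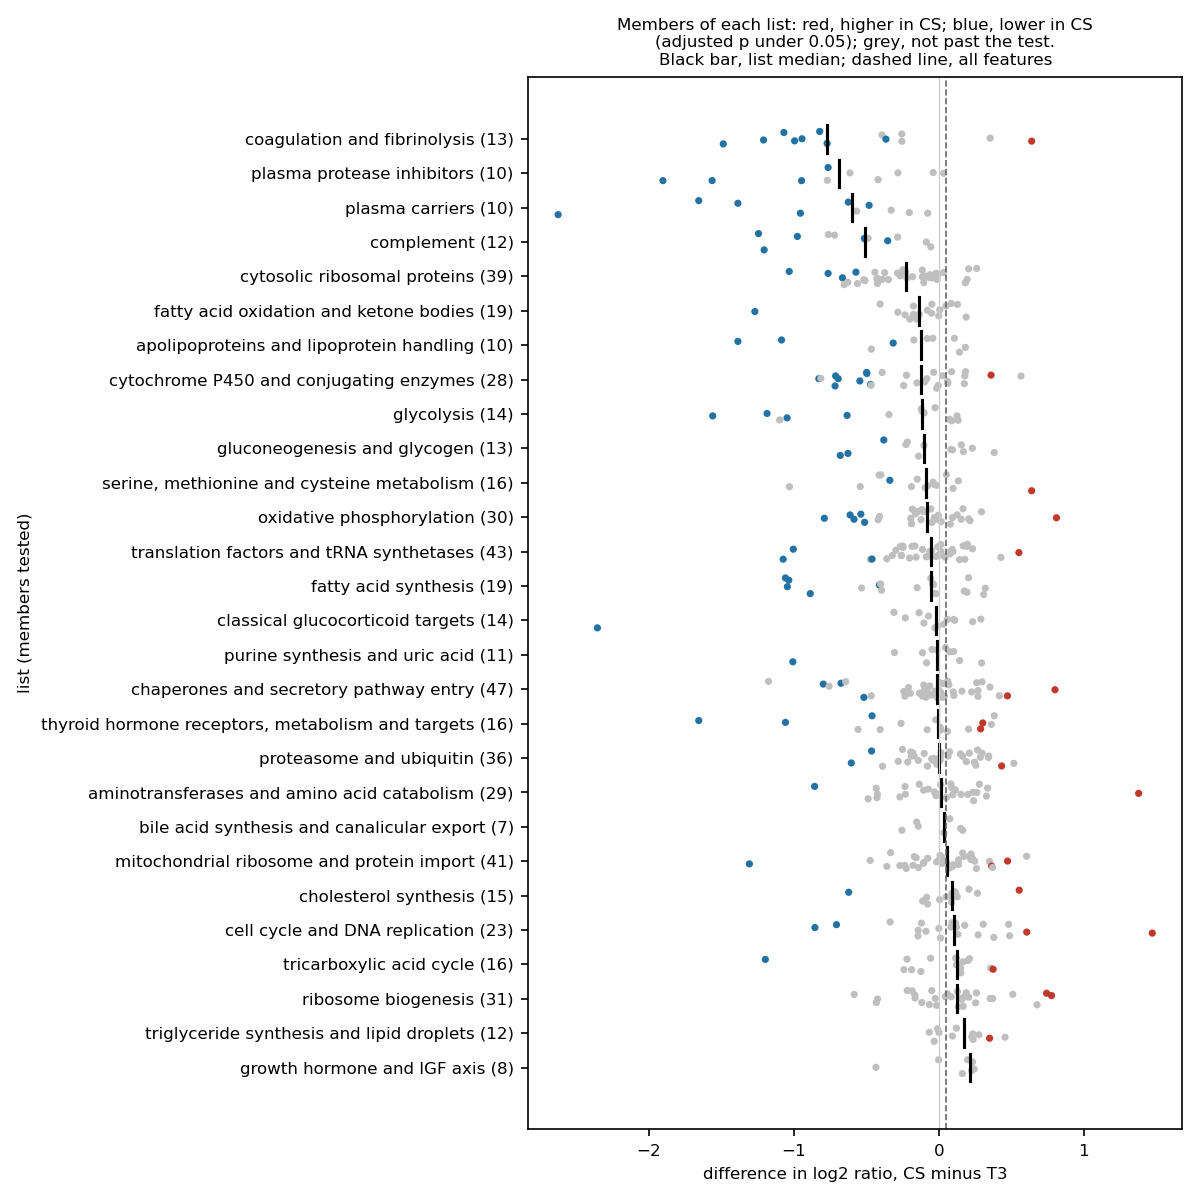
Difference in log2 ratio, CS minus T3, for the measured members of 28 gene lists ordered by list median; points are genes, colour marks the side of those with adjusted p under 0.05, black bars are list medians and the dashed line is the median of all features (0.05). The 4 lists of plasma proteins stand at the top with medians from -0.77 to -0.51, and ORM1 (-2.62) and HSD11B1B (-2.35) are the points farthest to the left.

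Classical targets of each hormone were read next. Of 14 measured glucocorticoid targets 1 passed (7.14%, beside 7.59% of all features), HSD11B1B, named after the enzyme that in mammals regenerates active glucocorticoid in the liver. Its ratios were -2.62, -2.21 and -1.13 in 5 CS birds and -1.04, 0.69 and 1.58 in 6 T3 birds, without overlap. HSD11B1B differed by -2.35 (SE 0.42, adjusted p = 0.00195), a 5.11-fold higher ratio in T3, and the call was lost after quantile normalization (adjusted p = 0.135). FKBP5, a chaperone that dampens the glucocorticoid receptor, had -0.04, 0.02 and 0.20 in 5 CS birds and -0.42, -0.28 and 0.04 in T3, a difference of 0.29 (SE 0.12, adjusted p = 0.128). TAT, tyrosine aminotransferase, differed by -0.23 (SE 0.14, adjusted p = 0.332) and its groups overlapped over most of their range. Of 16 measured genes of thyroid hormone receptors, metabolism and targets 31.2% were called. Lower in CS were 3 (TTR, THRSP and ATP1B1, a subunit of the sodium pump, at -0.46), and 2 were higher. Those 2 were RXRG, a partner of the thyroid hormone receptor (0.30, a call lost in 18 of 26 settings), and DIO1, the type 1 deiodinase that activates and clears thyroid hormone. DIO1 had 0.06, 0.26 and 0.34 in CS and -0.22, -0.05 and 0.07 in T3, a difference of 0.29 (SE 0.07, adjusted p = 0.0148; exact permutation p = 0.00649). The lowest CS bird, replicate 5, overlapped with the highest T3 birds, and the call was lost in 7 of 26 settings. Its 22 spots ranged from -0.12 to 0.75. Against vehicle, ATP1B1 passed for CS, with CS minus VC at -0.37 (adjusted p = 0.0362) and T3 minus VC at 0.09. DIO1 also passed for CS, with CS minus VC at 0.25 (adjusted p = 0.0469) and T3 minus VC at -0.04. For THRSP the difference of T3 from VC was the larger, as given above, and did not pass. These genes do not settle which channel is the numerator. None of 8 genes of the growth hormone and IGF axis passed, a list too short to set this apart from the 7.59% of all features.

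Drug- and steroid-metabolizing enzymes had 8 of 28 members lower in CS and 1 higher (32.1% called, beside 7.59% of all features). The cytochromes CYP2AC1 (-0.83, SE 0.17) and CYP2D6 (-0.71, SE 0.15), the glucuronosyltransferase UGT2A1 (-0.69, SE 0.12) and the glutathione transferases MGST1 (-0.71, SE 0.18) and GSTK1 (-0.47, SE 0.13) were on the lower side, and the sulfotransferase SULT1B1 (0.36) was on the higher side. The count of 9 went to 2 with the values as deposited and to 2 after quantile normalization. Over all features the count of 702 went to 233 and to 223.

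Among genes of protein synthesis the shares called were near the 7.59% of all features, at 10.3% for ribosomal proteins, 6.45% for ribosome biogenesis and 9.3% for translation factors and tRNA synthetases. Of 39 cytosolic ribosomal protein genes 4 were lower in CS and none higher, 5 of 39 had a difference above 0, and the median was -0.23. The 4 were RPL11 (-1.03), RPLP2 (-0.76), RPL35A (-0.66) and RPS12 (-0.57). The count of 4 became 2 with no array realigned, 1 without the misplaced arrays, 1 after quantile normalization and 1 after scaling. It became 14 without replicate 5 of both groups. Over all features the count of 702 became 233, 325, 223, 285 and 1424 in the same settings, in that order. Ribosome biogenesis lay on the other side of the median of all features, with 2 of 31 members higher in CS, NOL10 (0.78) and CCDC86 (0.74), and a median of 0.13. CCDC86 leaned on T3 replicate 1, the least certain array, at -2.12, while the other T3 birds had -0.55 to -0.06. Without the misplaced arrays its difference was 0.37 and did not pass (adjusted p = 0.111). EEF1A1, the elongation factor that brings aminoacyl-tRNA to the ribosome, had the smallest adjusted p of 43 translation factors and tRNA synthetases. It gave -1.63, -1.02 and -0.40 in CS and -0.38, 0.11 and 0.29 in T3, just apart, and differed by -1.07 (SE 0.15, adjusted p = 0.000339; exact permutation p = 0.00216). EEF2, which moves the ribosome along the message (mean -0.62 in CS and 0.38 in T3, adjusted p = 0.0114), and EEF1B2 (-0.46) were lower in CS as well, and FARSB, a subunit of phenylalanyl-tRNA synthetase, was higher (0.55).

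Chaperones and secretory entry gave 3 lower (PDIA5, a disulfide isomerase, -0.80, HSPA8, -0.67, and DAD1, a subunit of the glycosylating enzyme, -0.52) and 2 higher (HSPA4, 0.80, and SEC61G, a subunit of the translocation channel, 0.47) of 47. The proteasome list gave 2 lower (PSMD2, -0.60, and PSME3, -0.46) and 1 higher (UBE2V2, 0.43) of 36, and the mitochondrial ribosome and import list 1 lower (MRPS15, -1.31) and 2 higher (MRPS18A, 0.47, and MRPL22, 0.36) of 41. The shares called, 10.6%, 8.33% and 7.32%, lie near the 7.59% of all features. Of 23 genes of the cell cycle and DNA replication, 2 were higher and 2 lower in CS (17.4% called). Components of the same replication machinery lay on opposite sides. MCM4, a subunit of the replicative helicase, had -0.53 to 1.29 in CS and -1.53 to -0.55 in 4 T3 birds, a narrow gap between the groups, and differed by 1.47 (SE 0.29, adjusted p = 0.00531). RFC2, a subunit of the clamp loader, was higher by 0.61. GINS2, a partner of the same helicase (-0.85), and CDT1, which loads it (-0.70), were lower.

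Markers of other cell types in the liver were measured in the same birds. Of 17 leukocyte and macrophage markers 4 were lower in CS and none higher (23.5% called, beside 7.59% of all features). The list median was -0.09, and 4 of the 17 differences lay above 0, up to 0.43. CSF1R, another of these markers, differed by -0.06 (SE 0.10) and did not pass. HPGDS, the haematopoietic prostaglandin D synthase, gave -1.55, -1.14 and -0.55 in CS and -0.38, 0.39 and 1.26 in T3, without overlap. It differed by -1.52 (SE 0.27, adjusted p = 0.00195; exact permutation p = 0.00216), with CS minus VC at -1.42. CD74, the invariant chain of antigen presentation, did not overlap either and differed by -0.85 (SE 0.18, adjusted p = 0.00496), though its 4 spots ran from -1.97 to 0.05. MARCO, a macrophage scavenger receptor, differed by -1.10 and CYBB, a subunit of the phagocyte oxidase, by -0.66. Means over marker lists used only markers with a value on at least 10 of the 12 arrays. The mean ratio of 15 leukocyte markers was -0.27 to 0.11 over CS birds and -0.02 to 0.29 over T3 birds. Erythrocyte markers had 2 of 9 higher in CS (SLC4A1, the anion exchanger, 0.34, and EPB41, 0.30), a share of 22.2%. The differences of 7 of the 9 lay above 0. HBA1, a haemoglobin chain, had the lowest, at -0.28, and did not pass. Means over 7 erythrocyte markers with enough values, which leave out SLC4A1, were 0.14 to 0.50 in CS and -0.11 to 0.27 in T3. TM4SF4, listed among bile duct markers, gave -2.60, -1.54 and -1.01 in CS and -0.98, -0.21 and 0.56 in T3 and differed by -1.43 (SE 0.28, adjusted p = 0.00306), while the other 6 bile duct markers did not pass. Of the 14 endothelial, 22 stellate and 14 carry-over markers 1 each passed (TIE1, 0.46, MYL9, 0.25, and ACTA1, -1.02). Those shares were 7.14%, 4.55% and 7.14%. The carry-over markers of pancreas, muscle and adipose tissue had 11 of 14 differences above 0, opposite in sign to ACTA1. Over the 10 with enough values, which leave out ACTA1, the means were -0.08 to 0.09 in CS birds and -0.31 to -0.06 in T3 birds, which overlapped. The part of cell composition in the differences above was not tested.

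Several of the largest differences fell outside these lists. On the lower side, EPB41L5, which organizes cell junctions, differed by -1.76 (SE 0.40), VNN2, a vanin-type pantetheinase, by -1.71 (SE 0.38), GATM, the first enzyme of creatine synthesis, by -1.60 (SE 0.46, a call lost in 17 of 26 settings), and AP1M1, a subunit of a clathrin adaptor, by -1.57 (SE 0.35). EPB41L5 ratios were -2.05 to -1.05 in CS and -0.40 to 1.42 in 5 T3 birds, with a clear gap, whereas the birds of the other 3 genes overlapped. On the higher side, TM4SF1a had the largest difference (1.78, SE 0.52, adjusted p = 0.0392) and the widest spread, with -3.16 to 1.27 in T3. It did not pass in 14 of 26 settings. CBLB, a ubiquitin ligase that restrains receptor signalling, gave 0.85, 1.84 and 2.25 in CS and -0.16, 0.17 and 1.32 in 5 T3 birds, where the highest T3 bird was replicate 5. It differed by 1.31 (SE 0.27, adjusted p = 0.00569). SUGCT, a mitochondrial CoA transferase for glutarate, gave -0.13, 0.57 and 1.00 in CS and -0.80, -0.56 and -0.21 in 5 T3 birds without overlap, and differed by 1.01 (SE 0.19, adjusted p = 0.00359). The membrane protein TMEM185B (1.15), FILIP1L (1.14), INPP5E, an inositol phosphatase of cilia (0.91), NTRK2, a neurotrophin receptor (0.88, a call lost in 16 of 26 settings), and SIRT2, a deacetylase (0.81), were among the 15 largest on that side.

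The number of calls depended on which arrays were used. Without replicate 5 of both groups, 685 features passed on the higher side and 739 on the lower, but these birds were singled out because they lie between the groups on this very difference, so a rise follows from the choice. With the 3 misplaced arrays left out it was 325, and with no array realigned 233. Every feature that passed kept its sign in each setting that tested it, single spots aside. The calls of CP, CPB2, ITIH2, C1S, MASP1, APOA5, PGM1, PDK3, ATP5C1, CYCS, GSS, RPLP2, CCDC86, SEC61G, UBE2V2, MRPL22, MARCO, SLC4A1 and MYL9 were lost in more settings than they were kept. Of the 363 named genes, 43 passed in each of 7 settings (no realignment, the 3 misplaced arrays left out, quantile normalization, scaling, the 12 arrays alone, both replicates 5 left out, and the replicate block), 36 of them lower and 7 higher in CS. Among the 36 were TTR, AHSG, APOH, C3, APOB, VTN, A2M, F9, ENO1, GAPDH, GPI, EHHADH, ELOVL2, ACO1, HPGDS, INSIG2 and PDIA5. The 7 were MCM4, FOXRED1, TMEM185B, SUGCT, PALM, MYL2 and GALM. FOXRED1, PALM, MYL2, GALM, NME2, ALAS1 and CES1L1 are named for passing in all 7, a choice made after their values were seen. NME2, a nucleoside diphosphate kinase, had -2.06 to -0.94 in 5 CS birds and -0.36 to 0.10 in 4 T3 birds and differed by -1.51 (SE 0.23). ALAS1, the first enzyme of haem synthesis, had -1.55 to -0.48 in 5 CS birds and 0.09 to 0.37 in 4 T3 birds and differed by -1.27 (SE 0.24). The groups of both genes were apart over the birds with a value, and the share of all features with as few values that are apart was not computed.

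**Figure D4:**
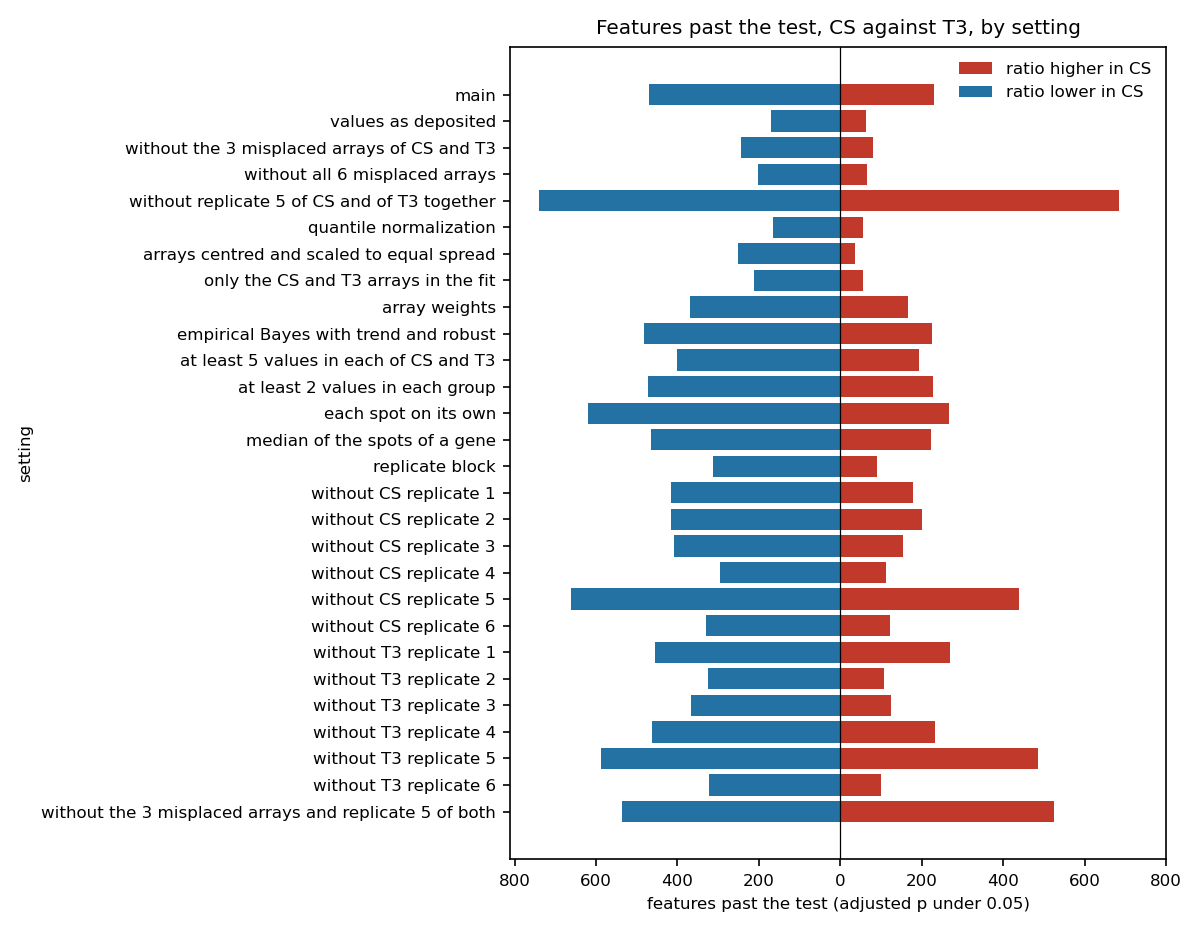
Number of features with adjusted p under 0.05 in each setting; bars to the right count features with a higher ratio in CS and bars to the left those with a lower ratio. The count is 702 as reported, runs from 223 (quantile normalization) to 1424 (without replicate 5 of both groups), and the lower side is the longer bar in every setting shown.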

How the data were processed

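Liver RNA of 23 chickens was compared with a control pool on spotted 2-colour cDNA arrays, 1 array per replicate. The deposited table holds the authors' ratios, read here as log2 values; the log base, numerator, background correction, normalization and spot filter are not given in the sources used here. Python 3.11.15 realigned 6 arrays whose values sat against the wrong spots: nondecreasing lags of up to 40 spots were searched, and an array was moved where at least 1000 spots correlated with the other arrays at r of 0.25 or more. Of 19200 spots 10601 carried 1 gene symbol. Spots of a gene were averaged. A feature needed 3 or more values per group to enter the limma fit (version 3.58.1, R 4.3.3), which had the group means of all 23 arrays, empirical Bayes and a Benjamini-Hochberg threshold of 0.05. Both steps were also tested. For the alignment, the values of the 17 arrays in place were moved by 13 spots, and at least 96.99% of spots got the right lag. Lags that grow along an array, as in T3 replicate 1, were not tried. For the fit, simulated differences of 0.5 were recovered in 51% of features and those of 1 in 85%, with 3.55% of calls false. Exact permutation tests were 2-sided, over 12 birds. Named genes were those past the test with at least 5 values per group, the 15 largest each way, and called members of the lists (up to 5 each way), with a few uncalled ones. Birds were taken by label, but the comparison and so its members, the gene lists and the rules were chosen with earlier results of these data known. The limma p-values rest on a spread between birds pooled over all 23 arrays, including VC and CS+T3. Array weights, which are higher for arrays with less spread, were 0.66 to 3.28 in VC and 0.38 to 2.36 in CS+T3. They were 0.47 to 1.81 in CS and 0.20 to 1.45 in T3, so the pooled spread can be too small for this contrast. With only the 12 CS and T3 arrays in the fit 267 features passed in place of 702. The permutation p-values use the 12 birds alone. Same-numbered birds of CS and T3 correlated at -0.22 to 0.20, and nothing in the labels ties the numbers together, so they were not treated as pairs. Alternatives concerned alignment, arrays left out, normalization, weights, filters, spot averaging and the replicate block. Promoter sequences were not analysed here.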

Additional observations from a re-analysis of the deposited data

How the results depend on the processing

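The count of 702 features past the test, CS against T3, became 233 (62 higher and 171 lower in CS) with no array realigned, 325 (81 and 244) when the 3 misplaced arrays of CS and T3 were left out, 266 (65 and 201) without all 6 misplaced arrays, 223 (57 and 166) after quantile normalization, 285 (35 and 250) after scaling, 267 (56 and 211) with only these 12 arrays in the fit, and 1424 (685 and 739) without replicate 5 of CS and T3. Leaving out 1 bird at a time gave 407 (without CS replicate 4) to 1101 (without CS replicate 5), and for T3 birds 423 (without replicate 6) to 1073 (without replicate 5); the count was also over 1.5 times lower without CS replicate 6 (452) and T3 replicate 2 (432). With the replicate number as a block the count was 402 (90 and 312), the correlations of same-numbered birds ran from -0.22 to 0.20, and 3 of 6 CS birds correlated best with the T3 bird of their own number, a hint from the data and not from the design. An alternative added after seeing the data, without the 3 misplaced arrays and replicate 5 of both groups, gave 1062 (526 and 536). Array weights, a robust fit, other filters, each spot on its own and the median of spots gave 535 to 888. No called feature changed sign in any of these settings, apart from single spots, which were not compared in this way. A set of 142 called genes, chosen by the naming rules and not all mentioned in the text, was followed through the settings. Of these, 65 still passed with the values as deposited, 64 after quantile normalization and 82 after scaling. Without the 3 misplaced arrays 86 of 141 passed, with the block 101, and without replicate 5 of both 137 of 140. The causes were not tested. The planned search of promoter motifs was not run.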
